A study of Mus musculus with 20 samples.

Results

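The genes described here are 10 members of the interleukin-6 (IL-6) cytokine family and the colony stimulating factors, with the receptors, signal transducer and feedback inhibitor through which the IL-6 family acts. They were Lif, Il6, Il11, Csf1, Csf2, Csf3, Il6st, Lifr, Socs3 and Stat3, taken by gene symbol, and all 10 were found among the 21509 protein-coding genes of both abundance tables. The cells were DC2, an immortalized line from distal caput principal cells of the mouse epididymis, grown in fibronectin-coated microfluidic channels and kept in low serum to let primary cilia form. In the first experiment, 6 flow libraries came from cells exposed to a shear stress of 1 dyne/cm2 for 3 h, and 6 static libraries came from cells with no flow. In the second, 4 libraries came from cells treated with Ift88 siRNA, a mixture of siRNAs against a gene required to build cilia, and 4 from cells given a scrambled control siRNA. According to the study's methods both siRNA groups were under flow, although their labels do not name it. All groups were the same single cell line, and nothing in the sources says that replicates came from separate cultures, so p-values measure the spread between these libraries, which may be technical. Flow replicate 6 is named as flow in its title, its description and the header of its values, but its treatment label names the static condition. It was counted as flow, and flow changes and correlations of the members that rest on it are also given without it.

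IL-6 family cytokines bind a receptor of their own and signal through the shared receptor chain gp130, encoded by Il6st. Janus kinases on the receptor then phosphorylate STAT3, which enters the nucleus and switches on genes that include Socs3, an inhibitor that binds gp130 and ends the signal. Colony stimulating factors were named for the macrophage and granulocyte colonies they support in bone marrow culture, and they act through separate receptors. In the epididymis, epithelial cells lie next to macrophages and dendritic cells, for which CSF1 and CSF2 are growth and survival factors.

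Abundances are given in TPM, the share of a library's transcripts scaled to a fixed total, with reads corrected for transcript length. Values are therefore scaled by transcript length, so that levels can be compared between genes of one library. The 2 tables were normalized separately, and their values are set side by side here without a test. The tables hold no read counts, and the study's methods give only a mean depth over all samples, so the depth of each library is unknown. In the control siRNA libraries, Ift88 was at 4.14 TPM ± 0.0541 (SD, n = 4). It fell to 1.30 TPM ± 0.326 (SD, n = 4) in the libraries with Ift88 siRNA (log2 fold change -1.17 ± 0.13 SE, limma adjusted p = 0.00212). The label of the cells as principal cells was only partly borne out by markers. The keratin Krt18 was at 23.2 to 111 TPM in the flow experiment, whereas the water channel Aqp9 reached 0.262 TPM, the epithelial adhesion gene Epcam 0.221 TPM, and the principal cell products Crisp1 and Lcn8 were listed at 0. Of 7 leukocyte markers only the lysosomal gene Cd68 averaged 1 TPM or more in the flow experiment. Summed over the list, these markers ranged from 10.6 to 40.9 TPM in flow libraries and from 13.9 to 66.4 TPM in static ones, while the defining leukocyte gene Ptprc reached 0.0878 TPM and Adgre1 and Cd3e were listed at 0.

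The promoter windows of Lif and Csf2 are shown because these genes differed most between flow and static cells, that of Il6 because it was higher in flow in every pair of libraries, and that of Socs3 because it is the textbook STAT3 target among the members. Each window runs from 250 bases before to 50 bases after a RefSeq transcription start on the mouse build GRCm38.p6, and is written 5′ to 3′ on the strand of the gene. The windows lie at chr11:4257318-4257617 on the plus strand for Lif, at chr11:54249850-54250149 on the minus strand for Csf2, at chr5:30012864-30013163 on the plus strand for Il6, and at chr11:117969317-117969616 on the minus strand for Socs3. Capitals mark matches, on either strand, to TGANTCA (bound by AP-1), TTCNNNGAA (bound by STAT proteins) or the NF-kB consensus.
Lif: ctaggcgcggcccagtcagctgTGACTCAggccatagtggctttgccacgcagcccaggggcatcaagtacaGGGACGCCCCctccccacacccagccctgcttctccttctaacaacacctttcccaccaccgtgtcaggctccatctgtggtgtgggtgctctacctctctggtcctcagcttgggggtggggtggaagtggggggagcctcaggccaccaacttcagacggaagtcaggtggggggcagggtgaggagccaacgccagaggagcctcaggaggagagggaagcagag
Csf2: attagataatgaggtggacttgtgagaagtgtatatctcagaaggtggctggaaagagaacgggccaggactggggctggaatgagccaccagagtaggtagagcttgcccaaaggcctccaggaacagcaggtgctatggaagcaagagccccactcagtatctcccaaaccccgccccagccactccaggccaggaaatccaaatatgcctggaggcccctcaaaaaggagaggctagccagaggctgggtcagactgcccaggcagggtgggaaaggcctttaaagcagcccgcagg
Il6: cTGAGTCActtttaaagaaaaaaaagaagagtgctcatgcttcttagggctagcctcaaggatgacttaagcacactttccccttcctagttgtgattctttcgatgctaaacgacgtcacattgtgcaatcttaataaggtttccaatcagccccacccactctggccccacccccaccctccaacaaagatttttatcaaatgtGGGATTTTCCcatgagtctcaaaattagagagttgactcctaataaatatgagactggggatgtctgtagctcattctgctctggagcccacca
Socs3: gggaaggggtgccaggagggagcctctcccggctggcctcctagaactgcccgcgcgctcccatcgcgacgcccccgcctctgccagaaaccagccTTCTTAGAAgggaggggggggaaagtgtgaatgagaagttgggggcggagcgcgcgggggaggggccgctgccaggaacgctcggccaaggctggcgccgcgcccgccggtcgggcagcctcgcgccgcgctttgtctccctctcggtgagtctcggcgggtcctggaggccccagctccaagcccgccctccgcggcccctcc

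The Lif and Il6 windows each held 1 AP-1 and 1 NF-kB match, the Socs3 window held 1 STAT match, and the Csf2 window held no match to any of the motifs. The Csf2 window is set on a RefSeq start 232 bases upstream of the start in the GENCODE annotation. It ends before the GENCODE start, so the bases just upstream of that start were not searched. The Socs3 window is set on a RefSeq start that lies inside the GENCODE gene. RefSeq windows were found for 9 of the 10 members (11 windows), with none for Csf3. AP-1 matches were present in 3 of these windows, STAT matches in 1 and NF-kB matches in 3. Among all 32851 windows of the same length, 7.81% held an AP-1 match, 8.30% a STAT match and 8.46% an NF-kB match. These are matches of letters only.

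In static cells, Csf1 was the most abundant member by far, at 251 TPM ± 40.4 (SD, n = 6), and every static library held more Csf1 than any held of another member. The receptor chain Il6st followed at 63.5 TPM ± 12.4 and the signal transducer Stat3 at 35.9 TPM ± 9.96, with overlapping ranges. Socs3 came next at 11.7 TPM ± 1.40, then Lif at 4.89 TPM ± 0.899, each apart from its neighbours in the order. Lifr, Csf2, Il11, Il6 and Csf3 were all below 1.5 TPM on average, and their ranges overlapped from one to the next. Among the members, DC2 cells without flow held mainly the mRNA of 1 ligand, CSF1, and of the gp130 and STAT3 chain.

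**Figure D1:**
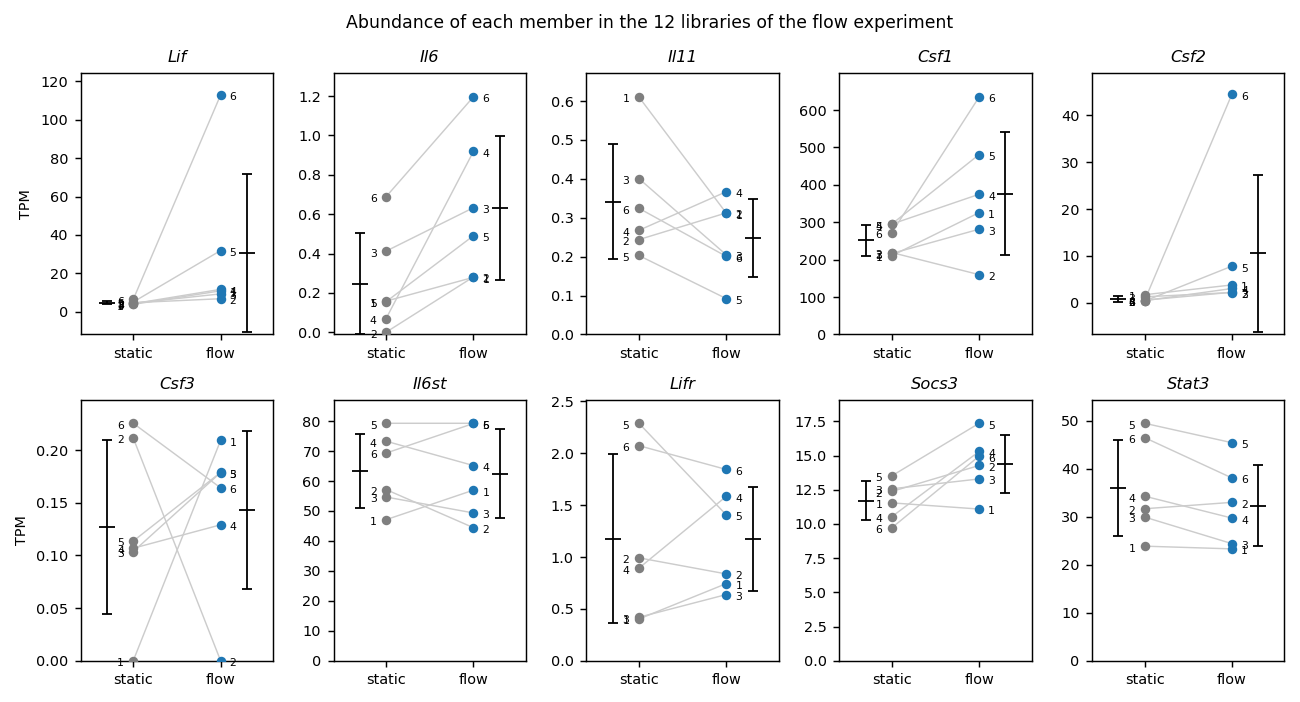
TPM of each of the 10 members (vertical axes, linear, one scale per gene) in the 6 static and 6 flow libraries, with points numbered by replicate, grey lines joining equal numbers, and black marks giving mean ± SD. For Lif and Csf2 all 6 flow points sit above all 6 static points, with flow replicate 6 far above the rest.

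Under shear stress, the ligands Lif and Csf2 were the only members whose flow libraries all lay above all static libraries, and the change differed widely in size between libraries. Across the whole table, 56 of 11388 genes tested (0.492%) had every flow library above every static library. None of the 7 members that passed the filter of 1 TPM mean abundance met both thresholds of the limma fit, namely 1.5-fold for the size of the change and 0.05 for the adjusted p. In the same fit 12 of 11388 genes did (0.105%). At an unadjusted p under 0.05 there were 3 members, Csf2, Lif and Socs3, beside 438 genes of the table (3.85%). The median log2 fold change of the 7 members was 0.27, against -0.026 over all genes tested. In bulk libraries such as these, fewer cells that express a gene and less RNA of it per cell cannot be told apart.

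Lif encodes leukemia inhibitory factor, the gp130 ligand known for sustaining mouse embryonic stem cells and for its role in implantation. The gene (ENSMUSG00000034394) lies at chr11:4257557-4272514 on GRCm38. Its abundance in replicates 1 to 6 was 10.98, 6.89, 9.40, 11.8, 31.9 and 113 TPM under flow, and 3.97, 4.82, 4.56, 4.31, 5.17 and 6.52 TPM in static cells. All flow libraries were above the static range, 4 of them close together and replicates 5 and 6 far higher. The log2 fold change was 1.70 ± 0.51 (SE; 95% interval 0.61 to 2.79; limma adjusted p = 0.490). The exact permutation test gave p = 0.00216 (two-sided, unadjusted, n = 6 against 6), which is the smallest this design can give. Without flow replicate 6 the change was 1.19 (limma adjusted p = 0.224). With that library counted as static it was 0.57 (limma adjusted p = 1.00).

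Csf2 encodes GM-CSF, a growth factor for macrophages, granulocytes and dendritic cells. The gene (ENSMUSG00000018916) lies at chr11:54247271-54249667 on GRCm38. Under flow it measured 3.79, 2.23, 2.17, 3.03, 7.81 and 44.6 TPM in replicates 1 to 6, and in static cells 1.70, 0.536, 1.26, 0.435, 0.348 and 0.456 TPM. The flow libraries were again all above the static ones, and the 2 highest were the same as for Lif. Its log2 fold change of 1.93 ± 0.53 (SE; 95% interval 0.78 to 3.07) did not pass (limma adjusted p = 0.389), while the exact permutation test gave p = 0.00216, again the smallest possible. Within pairs the exact permutation p was 0.0313 for Lif and for Csf2, the smallest that 6 pairs allow. Without flow replicate 6 the change was 1.37 (limma adjusted p = 0.0973), and with it counted as static 0.69 (limma adjusted p = 1.00). These values are on the log2(TPM + 1) scale, which understates changes at such low levels, and with a pseudocount of 0.1 the difference was 2.79.

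Csf1, the growth and survival factor of macrophages, had the highest level of the members and a smaller difference. The flow libraries measured 326, 160, 281, 375, 481 and 635 TPM, against 210, 219, 216, 295, 295 and 272 TPM in static ones. Flow was higher in 5 of 6 pairs, and in the remaining pair, replicate 2, it was lower than every static library. The log2 fold change was 0.47 ± 0.25 (SE; 95% interval -0.070 to 1.01; limma adjusted p = 0.998), and 0.29 without flow replicate 6.

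Il6 encodes interleukin-6, the founding member of the family, and was present at very low levels. It ranged from 0.279 to 1.20 TPM under flow (median 0.562) and from 0 to 0.689 TPM in static cells (median 0.156). Flow was higher in 6 of 6 pairs, although the groups overlapped. Il6 was under the filter of the fit, and its difference in mean log2(TPM + 1) was 0.38 (exact permutation p = 0.0541), and 0.29 without flow replicate 6. With permutation within the pairs the exact p was 0.0313. Il6 depended on the pseudocount, and with one of 0.1 its difference was 1.25 (exact permutation p = 0.0390, not within pairs). Il11, a gp130 ligand expressed in stromal cells, and Csf3, the granulocyte factor G-CSF, stayed below 0.62 TPM and 0.23 TPM in every library of this experiment. Their differences were -0.10 (exact permutation p = 0.238) and 0.022 (exact permutation p = 0.695).

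The receptor genes, the signal transducer and the feedback inhibitor differed little. Il6st measured 44.4 to 79.3 TPM under flow (median 61.1) and 47.1 to 79.3 TPM in static cells (median 63.2), with a log2 fold change of -0.035 and a 95% interval of -0.38 to 0.31. Lifr, the receptor chain that pairs with gp130 to bind LIF, was at 0.638 to 1.84 TPM under flow (median 1.12) and 0.403 to 2.29 TPM in static cells (median 0.942), with a log2 fold change of 0.049 and an interval of -0.46 to 0.56. Stat3 ranged from 23.3 to 45.4 TPM under flow (median 31.3) and from 23.9 to 49.4 TPM in static cells (median 32.9), with a log2 fold change of -0.14 and an interval of -0.55 to 0.26. Of 6 pairs, Stat3 was lower under flow in 5, Il6st in 4 and Lifr in 3. The ranges of the groups overlapped almost entirely for these genes, and the intervals of Il6st and Stat3 lie within 1.5-fold in either direction. That of Lifr does so only on the log2(TPM + 1) scale, and with a pseudocount of 0.1 it was -0.75 to 1.08. Without flow replicate 6 the changes were -0.11 for Il6st, -0.035 for Lifr, where the sign turned, and -0.20 for Stat3. The Stat3 interval was then -0.63 to 0.23, which goes past 1.5-fold on the lower side. It also did so with some other single libraries left out.

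Socs3 lay between the ligands and the receptors. Its flow libraries measured 11.1, 14.3, 13.3, 15.3, 17.4 and 15.0 TPM, and its static libraries 11.5, 12.4, 12.6, 10.5, 13.5 and 9.71 TPM. Flow was higher in 5 of 6 pairs and 4 of the 6 flow libraries were above all static ones. The log2 fold change of 0.27 ± 0.11 (SE; 95% interval 0.038 to 0.50) did not pass (limma adjusted p = 0.998; exact permutation p = 0.0303). With permutation within the pairs the exact p was 0.0625. The change was 0.26 without flow replicate 6.

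**Figure D2:**
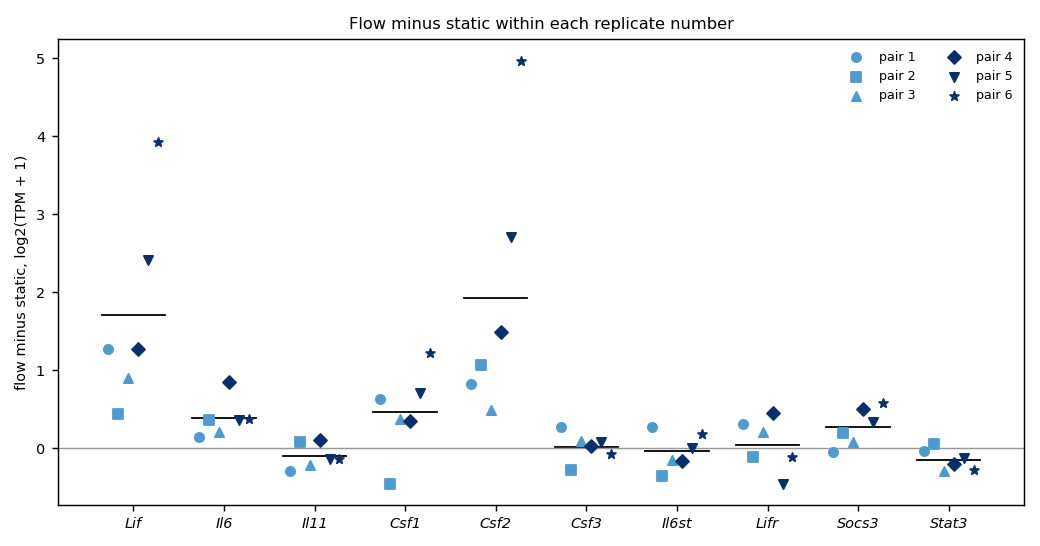
Flow minus static difference in log2(TPM + 1) for each member (horizontal axis) within each of the 6 replicate numbers, with light symbols for pairs 1 to 3, dark symbols for pairs 4 to 6, and black bars for the mean. Lif, Il6 and Csf2 are above 0 in all 6 pairs, and pairs 5 and 6 hold the largest Lif and Csf2 differences.

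Libraries with the same replicate number deviated together in this experiment, so the fit was also made with the number as a block. No member passed there either, beside 68 of 11388 genes (0.597%). At an unadjusted p under 0.05 there were 5 of 7 members, beside 1266 genes (11.1%). Lif, Csf2, Csf1 and Socs3 were higher under flow, with adjusted p values of 0.0797, 0.145, 0.321 and 0.326 (limma). Stat3 was lower under flow, at -0.14 with an interval of -0.28 to -0.0024 (limma adjusted p = 0.447). Replicate 2 was the pair with the smallest Lif difference, 0.44, and the only one in which Csf1 was lower under flow, with a difference of -0.45. With pair 2 left out of the blocked fit, an alternative added after these values had been seen, Lif (1.96, limma adjusted p = 0.00737), Csf2 (2.10, limma adjusted p = 0.0268) and Csf1 (0.65, limma adjusted p = 0.00439) passed both thresholds, and so did 193 of 11362 genes (1.70%). With pair 6 left out instead, none of them passed, at 0.0509 for Lif and 0.0903 for Csf2.

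Within a group, replicates 1 to 3 and 4 to 6 often did not overlap, a division that the labels do not give. Among flow libraries this held for 5 of the 7 members tested (Csf1, Il6st, Lif, Lifr and Socs3) and 2298 of 11388 genes (20.2%), and among static libraries for 4 members (Csf1, Csf2, Il6st and Stat3) and 4073 genes (35.8%). In static cells Il6st was at 47.1 to 57.1 TPM in replicates 1 to 3 and at 69.3 to 79.3 TPM in replicates 4 to 6, and under flow at 44.4 to 57.0 and 65.2 to 79.3 TPM. Lifr was at 0.638 to 0.837 TPM in replicates 1 to 3 and at 1.41 to 1.84 TPM in replicates 4 to 6 under flow, but its static sets overlapped (0.403 to 0.992 and 0.892 to 2.29 TPM). Static Stat3 was at 23.9 to 31.6 TPM in the first set and 34.3 to 49.4 TPM in the second, while its flow sets overlapped (23.3 to 32.97 and 29.7 to 45.4 TPM). Static Csf1 was at 210 to 219 TPM in replicates 1 to 3 and 272 to 295 TPM in replicates 4 to 6. Static Csf2 went the other way, at 0.536 to 1.70 TPM in the first set and 0.348 to 0.456 TPM in the second.

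The flow difference itself was larger in the second set for all 4 of Lif, Csf2, Csf1 and Socs3. For the other members tested, the second set minus the first was 0.085 for Il6st, -0.11 for Stat3 and -0.17 for Lifr. Lif differed by 0.87 in replicates 1 to 3 alone and by 2.53 in replicates 4 to 6 alone, and Csf2 by 0.80 and 3.06. The corresponding values were 0.18 and 0.76 for Csf1, and 0.071 and 0.47 for Socs3. The difference between the sets, tested as an interaction, was 2.26 ± 0.89 (SE) for Csf2 and 1.66 ± 0.77 (SE) for Lif, with an adjusted p of 1.00 for both (limma). Without flow replicate 6, an alternative added after the values had been seen, it was 1.28 ± 0.45 (SE) for Csf2 and 0.84 ± 0.44 (SE) for Lif, again with an adjusted p of 1.00 (limma). Flow replicates 4 and 5 then differed from static replicates 4 to 6 by 1.71 for Lif, 2.08 for Csf2, 0.56 for Csf1 and 0.51 for Socs3. With all libraries, no gene of 11388 passed this interaction at an adjusted p under 0.05, and 238 had an unadjusted p under 0.05. The sum of the epithelial markers was 23.9 to 32.7 TPM in replicates 1 to 3 and 64.5 to 113 TPM in replicates 4 to 6, nearly all of it Krt18, and its part in these differences was not tested.

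With Ift88 siRNA, Csf2 and the receptor gene Lifr were lower than with control siRNA on average, and neither passed the test. None of the 8 members that passed the filter met both thresholds (limma), where 25 of 11209 genes did (0.223%). At an unadjusted p under 0.05 there were 2 members, Csf2 and Lifr, beside 1561 genes (13.9%). The median log2 fold change of the 8 members was -0.078, against 0.017 over all genes tested. In this experiment 3 of the 6 ligands, Csf1, Lif and Csf2, were at 25.0 TPM or more in every library, while Il6, Il11 and Csf3 averaged under 2 TPM in both groups. Csf1 was at 1995 TPM ± 201 (SD, n = 4) with control siRNA, followed by Stat3 at 116 TPM ± 6.05, Il6st at 78.9 TPM ± 6.75, Lif at 65.3 TPM ± 3.17 and Csf2 at 49.2 TPM ± 7.56, each apart from the next.

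**Figure D3:**
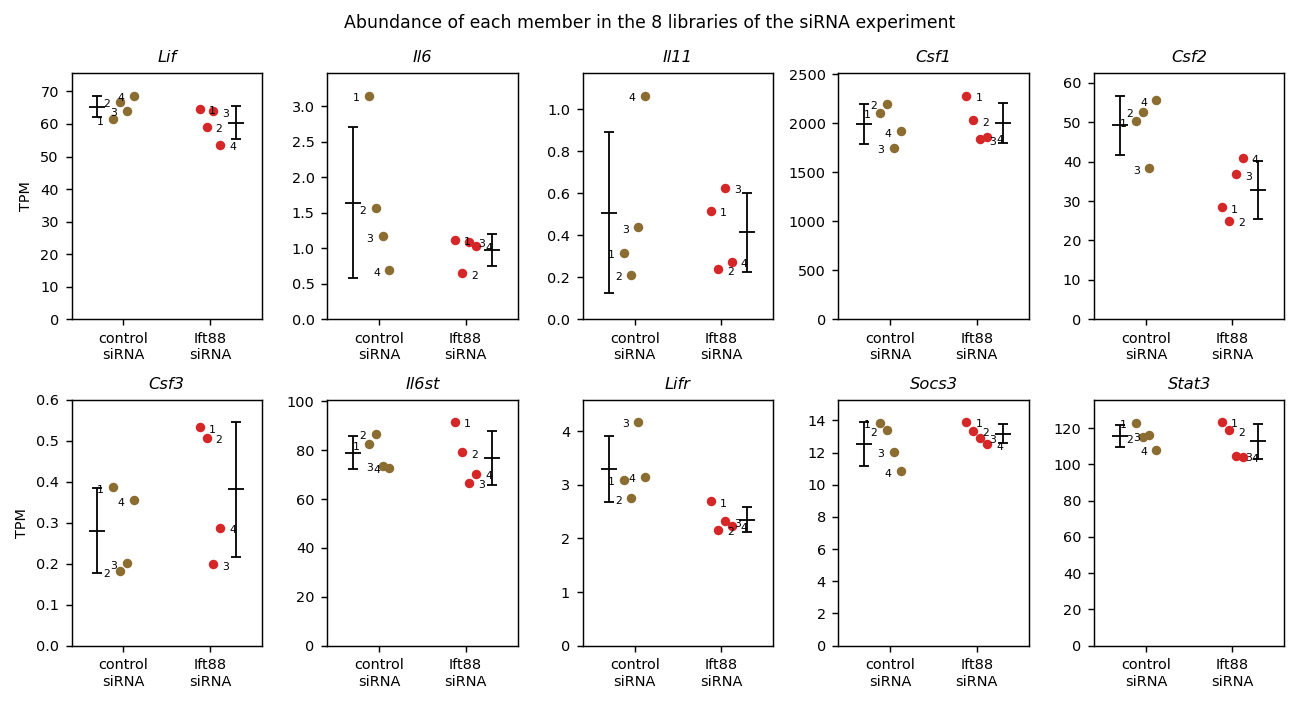
TPM of each of the 10 members (vertical axes, linear from 0, one scale per gene) in the 4 control siRNA and 4 Ift88 siRNA libraries, with points numbered by replicate and black marks giving mean ± SD. Lifr is the only member whose 4 Ift88 siRNA points all lie below the 4 control points, and for Csf2 3 of 4 do.

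Csf2 measured 28.4, 25.0, 36.8 and 40.9 TPM in Ift88 siRNA replicates 1 to 4, and 50.2, 52.6, 38.3 and 55.5 TPM in the controls. The groups overlapped by 1 library, since control replicate 3 was below Ift88 siRNA replicate 4. The log2 fold change was -0.58 ± 0.15 (SE; 95% interval -0.90 to -0.26; limma adjusted p = 0.106; exact permutation p = 0.0571, where the smallest possible is 0.0286). When libraries were weighted by their quality the change was -0.77 and passed both thresholds (limma adjusted p = 0.0176), in a fit that called 48 of 11209 genes (0.428%).

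Lifr measured 2.69, 2.16, 2.32 and 2.23 TPM with Ift88 siRNA and 3.09, 2.74, 4.17 and 3.15 TPM with control siRNA. Every Ift88 siRNA library was below every control library, as was the case for 313 of 11209 genes (2.79%). The log2 fold change was -0.35 ± 0.14 (SE; 95% interval -0.64 to -0.056; limma adjusted p = 0.281; exact permutation p = 0.0286, the smallest possible).

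The other ligands overlapped between the siRNA groups. Lif was at 64.7, 59.1, 63.8 and 53.6 TPM with Ift88 siRNA and at 61.5, 66.9, 64.1 and 68.7 TPM in controls. Its log2 fold change was -0.12, with an interval of -0.28 to 0.045. Csf1 was at 1837 to 2284 TPM with Ift88 siRNA and at 1750 to 2202 TPM in controls, a log2 fold change of 0.0053 with an interval of -0.18 to 0.19. For these abundant ligands a change of 1.5-fold in either direction lies outside the interval. Il6 was at 1.12, 0.647, 1.09 and 1.03 TPM with Ift88 siRNA and at 3.15, 1.56, 1.17 and 0.688 TPM in controls, where 1 library was far higher than the rest. Its log2 fold change was -0.35, with an interval of -0.85 to 0.16, and it was -0.10 without control replicate 1 and -0.54 without control replicate 4. Il11 (0.212 to 1.07 TPM) and Csf3 (0.182 to 0.533 TPM) were under the filter, with exact permutation p values of 0.771 and 0.371.

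Downstream of the ligands, the ranges of the groups overlapped. The log2 fold changes were -0.042 for Il6st (95% interval -0.25 to 0.17), -0.036 for Stat3 (-0.19 to 0.12) and 0.071 for Socs3 (-0.14 to 0.29). Socs3 was at 12.5 to 13.9 TPM with Ift88 siRNA and at 10.8 to 13.9 TPM in controls, and Stat3 at 104 to 123 TPM and 108 to 123 TPM. Il6st was at 66.7 to 91.6 TPM and 72.7 to 86.6 TPM. Each of these intervals lies within 1.5-fold in either direction.

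**Figure D4:**
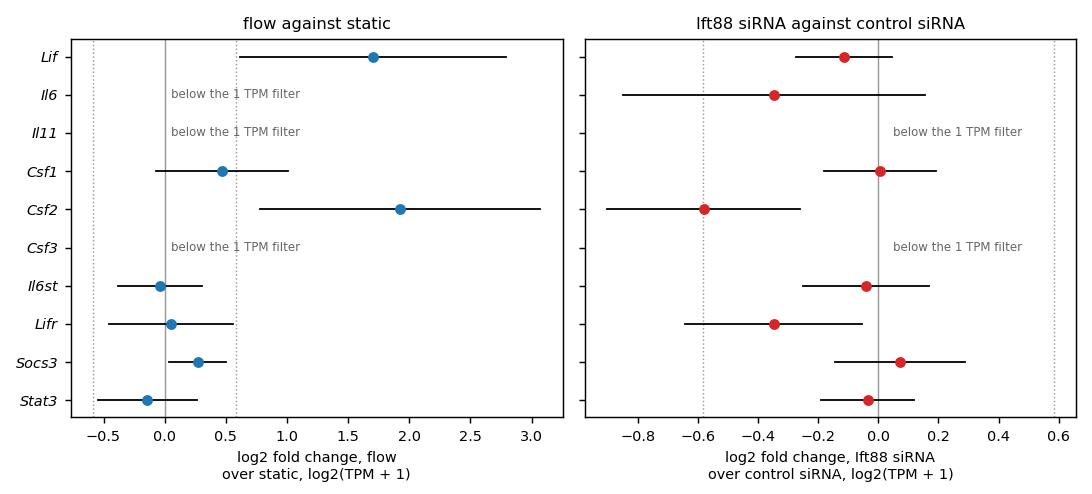
Log2 fold change of each tested member (points) with its 95% interval (lines) from the limma fit on log2(TPM + 1), for flow over static (left) and Ift88 siRNA over control siRNA (right), with dotted lines at 1.5-fold. The intervals of Lif, Csf2 and Socs3 under flow lie above 0, those of Csf2 and Lifr with Ift88 siRNA lie below 0, and Il6, Il11 and Csf3 are marked where they were below the filter.

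The levels of the members in the 2 experiments are given side by side. Lif was at 53.6 to 68.7 TPM in the 8 siRNA libraries and at 6.89 to 113 TPM in the 6 flow libraries, and Csf1 at 1750 to 2284 TPM and 160 to 635 TPM. Csf2 was at 25.0 to 55.5 TPM and 2.17 to 44.6 TPM, so that of these ligands only Csf1 had ranges that did not overlap. For Lif and Csf2 the overlap came from flow replicate 6 alone. Without it the flow libraries reached at most 31.9 TPM for Lif and 7.81 TPM for Csf2, below every siRNA library. Socs3 was at 10.8 to 13.9 TPM and 11.1 to 17.4 TPM. The experiments differ in transfection and were normalized separately, so no difference was tested.

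The rest of the pathway was described with 8 lists of 65 genes, of which 46 passed the filter in each experiment. None of the 46 met both thresholds in either comparison (limma). At an unadjusted p under 0.05 there were 9 in the flow experiment and 11 in the siRNA experiment, beside the 3.85% and 13.9% of all genes given above.

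Of 7 other IL-6 family ligands, Cntf, ciliary neurotrophic factor, and Clcf1, a cardiotrophin-like cytokine that signals through the CNTF receptor, passed the filter. Clcf1 measured 71.9 TPM ± 23.8 in flow libraries and 50.1 TPM ± 14.2 in static ones (SD, n = 6), a log2 fold change of 0.49 ± 0.22 (SE; 0.37 without flow replicate 6), and Cntf was at 27.5 TPM ± 3.14 and 27.9 TPM ± 2.49. Clcf1 was thus more abundant than Lif on average in both groups. Oncostatin M, Osm, was listed at 0 in all 12 libraries. With Ift88 siRNA the changes were 0.084 for Clcf1 and -0.17 for Cntf.

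The receptor genes were present at very unequal levels. Of 5 specific IL-6 family receptors, 4 were tested under flow, with a median log2 fold change of -0.11 and the extremes at Il6ra, the IL-6 receptor (0.045), and Cntfr, the CNTF receptor (-0.23). Il6ra was at 6.89 TPM ± 0.977 and the IL-11 receptor Il11ra1 at 30.998 TPM ± 2.47 in static cells. With Ift88 siRNA 3 were tested, and the extremes were Il11ra1 (0.11) and the oncostatin M receptor Osmr (-0.045). Of 8 receptors of colony stimulating factors and related ligands, the alpha chains Csf2ra and Il3ra were tested, with log2 fold changes of -0.11 and -0.12 under flow, and 0.087 and 0.28 with Ift88 siRNA. Csf2ra, which binds GM-CSF, was at 14.4 TPM ± 3.31 in static cells, whereas the signalling chain Csf2rb did not exceed 1.05 TPM in that experiment. The CSF1 receptor Csf1r was at 0.122 to 1.34 TPM and the G-CSF receptor Csf3r at no more than 0.175 TPM. Kitl, stem cell factor, was the only tested gene of 4 other factors, at 0.10 under flow and -0.054 with Ift88 siRNA.

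Janus kinases and other STATs numbered 6, all tested, with a median of -0.049 under flow, between Tyk2 (-0.12) and Stat5b (-0.0015). With Ift88 siRNA their median was 0.15, between Jak2 (-0.14) and Stat5a (0.26). All 12 other inhibitors of cytokine signalling were tested, with a median of 0.035 under flow. Socs1, which blocks Janus kinases directly, was at the top, with 2.93 TPM ± 1.54 (flow) and 1.49 TPM ± 0.243 (static) (log2 fold change 0.57 ± 0.21 SE, and 0.42 without flow replicate 6), and Pias3, an inhibitor of STAT3, at the bottom with -0.25. With Ift88 siRNA the extremes of this list were Socs2 (0.24) and Socs5 (-0.28), with a median of -0.054.

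Of 15 STAT3 target genes, 11 were tested under flow, with a median of 0.12 between Il4ra (-0.12) and Junb (2.11). Junb, which encodes an AP-1 subunit, measured 295 TPM ± 234 in flow libraries and 51.9 TPM ± 10.4 in static ones (limma adjusted p = 0.0792), and its log2 fold change was 1.802 without flow replicate 6. In the fit blocked by replicate number, Junb (limma adjusted p = 0.00643) and the growth regulator Myc (0.94, limma adjusted p = 0.0190) rose and met both thresholds, as 2 of the 11. With pair 6 left out Junb still did (limma adjusted p = 0.0136) and Myc did not (limma adjusted p = 0.0688). Both are also immediate early genes that many other signals induce, and 68 of all genes met the thresholds in that fit. Of 12 tested with Ift88 siRNA, the extremes were Il4ra (0.18) and the acute-phase gene Saa3 (-0.49), with a median of 0.0078.

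Many cytokine mRNAs, those of Csf2 and Il6 among them, carry AU-rich elements, and the proteins that bind these shorten or lengthen the life of the message. All 8 genes of this list were tested, and their median under flow was 0.37, between Khsrp (-0.082) and Zfp36 (1.97). Zfp36, which encodes tristetraprolin, measured 38.7 TPM ± 34.8 in flow libraries and 6.10 TPM ± 1.58 in static ones (limma adjusted p = 0.250), and its log2 fold change was 1.65 without flow replicate 6. In the blocked fit, Zfp36 (limma adjusted p = 0.0216), Zfp36l1 (0.97, limma adjusted p = 0.0125) and Zfp36l2 (0.69, limma adjusted p = 0.0108) rose and met both thresholds, as 3 of the 8. With pair 6 left out Zfp36 did not (limma adjusted p = 0.0557), and the other two did. With Ift88 siRNA the median was -0.17, between Rc3h1 (-0.22) and Zfp36 (0.31).

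**Figure D5:**
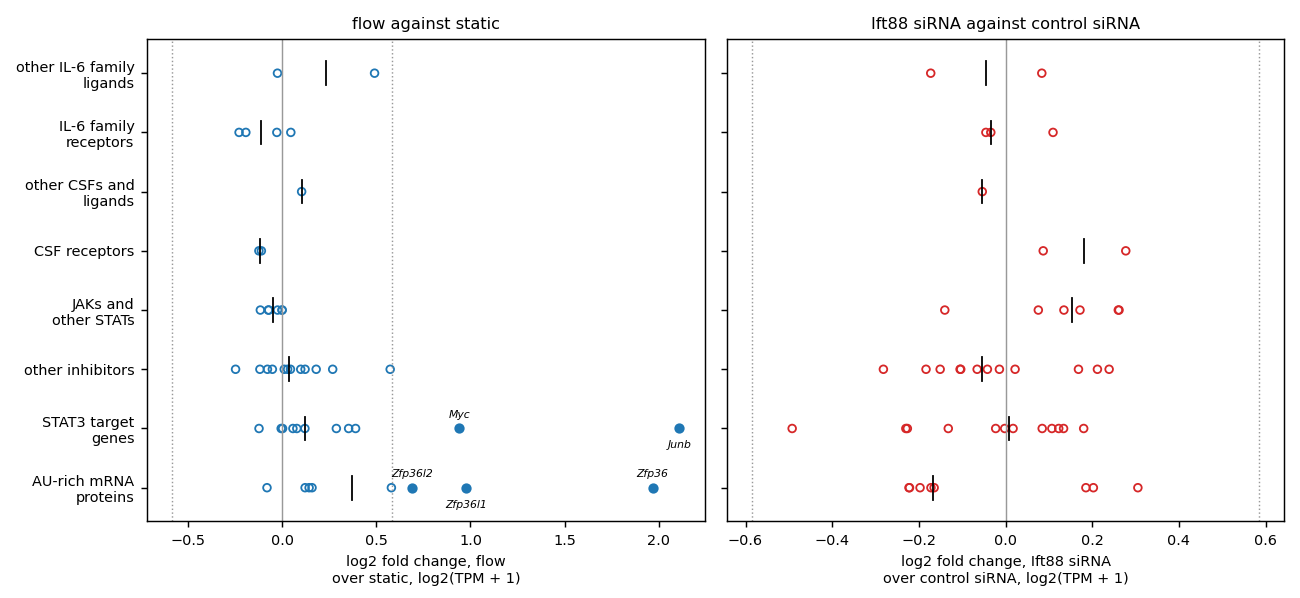
Log2 fold change of every tested gene of the 8 related lists (rows) for flow over static (left) and Ift88 siRNA over control siRNA (right), on log2(TPM + 1), with black bars at each list's median and dotted lines at 1.5-fold. Filled points met both thresholds in the fit blocked by replicate number, namely Myc, Junb, Zfp36l2, Zfp36l1 and Zfp36 under flow and no gene with Ift88 siRNA.

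The genes whose log2(TPM + 1) was most like that of Lif over the 12 libraries of the flow experiment were Dusp2 (Pearson r = 0.988), Pxdc1 (0.977), Usp53 (0.968), Mob3a (0.959) and Tgif1 (0.959). For Csf2 they were Kctd11 (0.958), Sox9 (0.955), Lif (0.954), Dusp2 (0.946) and Mob3a (0.946), so that Lif itself was the third. Csf1 followed Lif with 0.856 and Csf2 with 0.740, whereas Stat3 had 0.234 with Lif and 0.0027 with Csf2. These values are descriptions over libraries that share their group and their replicate set. Without flow replicate 6, Lif and Csf2 had an r of 0.861 over 11 libraries, Csf1 had 0.746 with Lif and 0.482 with Csf2, and the genes named ranged from 0.946 to 0.994 for Lif and from 0.861 to 0.956 for Csf2. Over the 8 libraries of the siRNA experiment Lif and Csf2 had an r of 0.346, and the lists were other genes: Zfp280c (0.929), Rmnd5a (0.925), Gcnt2 (0.925), Tnip2 (0.925) and Utp20 (0.902) for Lif, and Timm8a1 (0.943), Rpl30 (0.924), Nipal1 (0.918), Emc4 (0.915) and Zfp787 (0.914) for Csf2.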

How the data were processed

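Poly(A) RNA from the 20 libraries was sequenced with a directional paired-end kit. Per the labels and the study's methods, the authors quantified reads with kallisto 0.46.2 against an Ensembl mouse transcriptome. The submitters' processing notes also name fastp 0.20.0, FastQC 0.11.8 and MultiQC 1.8. The authors deposited TPM values, scaled to the same total in every library. The study's methods give a mean depth over samples only, so the depth and counting error of each library are unknown. The read counts were not used here, and in place of the count test of the study's methods, log2(TPM + 1) was fitted with limma 3.58.1 (trend, R 4.3.3). Genes averaging under 1 TPM over the libraries of a table were left out, and p-values were adjusted (Benjamini-Hochberg) over all that remained. The thresholds were an adjusted p under 0.05 and a change over 1.5-fold. Exact permutation tests were two-sided and unadjusted. The test was checked on simulated data.

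Groups came from the sample labels. Flow replicate 6 carries labels for both conditions. Same-numbered flow and static libraries deviated together (correlations of deviations from the group means 0.294 to 0.662). The number was therefore used for pair counts, within-pair permutations and the replicate block. Where no block is named, the limma values come from a fit without pairing. Alternatives were the replicate block, other scaling, weights, filter and pseudocount, each library left out, and the replicate sets alone.

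The members and gene lists were chosen with earlier results of these data known. The genes named were the members, Ift88, and in each list every gene past both thresholds or else the highest and lowest by log2 fold change, with the 5 genes of highest correlation to Lif and to Csf2. Csf2rb, Csf1r, Csf3r, Osm and the levels of Il6ra and Il11ra1 were named after their values were seen, as were the genes that passed only in the blocked fit. Promoter sequences are from RefSeq (GRCm38.p6) and gene positions from GENCODE on GRCm38.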

Additional observations from a re-analysis of the deposited data

Results flagged for a closer look

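Of 40 combinations of member and group, 2 held a library far from the others of its group, and chance alone sets apart about 1 in 20. Il6 in Ift88 siRNA replicate 2 was at 0.647 TPM, while the other 3 libraries of that group were at 1.03 to 1.12 TPM. Csf3 in flow replicate 2 was listed at 0 TPM, while the other 5 flow libraries were at 0.129 to 0.209 TPM. Both genes averaged under 2 TPM in every group.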

How the results depend on the processing

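Without a filter on low TPM 2 genes passed both thresholds in the flow experiment, with median-of-ratios scaling 28, with library weights 86, with the replicate block 68, with flow replicate 6 counted as static 0, in replicates 1 to 3 alone 5 and in replicates 4 to 6 alone 56, against 12 as reported. The last 2 fits held 6 libraries each. With flow replicate 6 as static, limma gave 181 genes at an unadjusted p under 0.05. With a library left out the count was 5 to 87, the highest without flow replicate 2. In the siRNA experiment it was 6 without the filter, 48 with library weights, 71 with no fold change threshold and 44 with the replicate block, against 25, and 11 to 23 with a library left out. The cause of these shifts was not tested. The count of members past the thresholds stayed at 0 with every library left out in turn, and it was 3 with the replicate block and pair 2 left out (193 genes) and 1, Csf2, with library weights in the siRNA experiment. With pair 6 left out of the block 41 genes passed and no member. The last alternatives, which leave out a pair, were chosen after seeing the data.

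The replicate block changed no call of a member. Same-numbered siRNA libraries shared only a number (correlations 0.0028 to 0.259), and in the flow experiment replicate 3 correlated better with another number (0.509). Among 332 refits of single members, 300 kept direction and side of the threshold, 24 reversed and 8 moved past it. For members under the filter, the threshold was an unadjusted exact permutation p of 0.05. Il6 under flow moved past only this one, with a pseudocount of 0.1 and in 3 tests with a library left out (lowest exact permutation p = 0.0173). The rest of the 8 passed the limma thresholds. The reversals were of values near 0. For Il6st under flow they were 0.0084 with library weights, 0.0074 in replicates 4 to 6 and 0.029 with the block and pair 2 left out (-0.11 to 0.055 with a library left out), and for Lifr -0.10 with flow replicate 6 as static and -0.038 in replicates 4 to 6 (-0.062 to 0.18). Csf3 under flow ranged from -0.012 to 0.060. With Ift88 siRNA, Csf1 was -0.018 with median-of-ratios scaling and -0.0029 with library weights (-0.060 to 0.055), Il11 ranged from -0.17 to 0.091, Il6st from -0.13 to 0.022 and Stat3 from -0.080 to 0.00025. Of related genes under flow, Cntf was 0.0034 with median-of-ratios scaling and 0.0031 in replicates 1 to 3 (-0.072 to 0.029), Kitl -0.037 in replicates 1 to 3, and Stat5b 0.028 with median-of-ratios scaling, 0.019 in replicates 1 to 3 and 0.0050 with the block and pair 6 left out (-0.067 to 0.043). Il3ra ranged from -0.23 to 0.015 and Il6ra from -0.024 to 0.098. With Ift88 siRNA, Clcf1 ranged from -0.016 to 0.17, Csf2ra from -0.012 to 0.18, Kitl from -0.13 to 0.026 and Osmr from -0.10 to 0.0063. With a pseudocount of 0.1, Il6 under flow differed by 1.25 (exact permutation p = 0.0390). The depth of each library is unknown, so no limit of detection per library is given for Il6, Il11 and Csf3.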
